A study of Bos taurus with 24 samples.

Results

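The ADAMTS proteases are secreted zinc enzymes of the extracellular matrix, named for a disintegrin-like domain and thrombospondin repeats that follow the catalytic domain. Their transcripts were examined in bovine dermal fibroblasts (DF) before and after exposure to lipopolysaccharide (LPS), the endotoxin that Gram-negative bacteria carry in their outer membrane. The members were 10 named genes, ADAMTS1, ADAMTS2, ADAMTS3, ADAMTS4, ADAMTS5, ADAMTS6, ADAMTS7, ADAMTS9, ADAMTS10 and ADAMTS12, and each was taken from the count table by its gene symbol. Of these, 9 had an entry among the 27371 symbols of the table, each on 1 line, and ADAMTS7 was not analysed here. The rule used gene names and no sample value, but the members were chosen with earlier results of these data known.

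The study asked how fibroblast cultures of a dairy and a beef breed differ in their response to LPS. RNA-Seq was performed on 24 samples from 8 animals, 4 Angus and 4 Holstein heifers matched for age, each giving 1 culture from a skin biopsy of the shoulder. All cultures were revived from cryopreservation, challenged with LPS at 100 ng/ml, and sampled at hour 0 (no LPS exposure), hour 2 and hour 8, with lysates of duplicate wells pooled before RNA extraction. The 6 groups were therefore Angus and Holstein DF at each hour, with 4 animals per group and the same animals at all 3 hours. No culture without LPS was analysed here at hour 2 or hour 8, so time in culture and LPS exposure cannot be told apart, and 4 heifers stand for each breed. In these cultures, fewer cells of a type and less RNA per cell cannot be told apart either.

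By the substrates they are known for, the members fall into several groups. ADAMTS1, ADAMTS4, ADAMTS5 and ADAMTS9 cleave the large proteoglycans aggrecan and versican, which hold water and hyaluronan in the matrix, and ADAMTS4 and ADAMTS5 are the classic aggrecanases of cartilage. ADAMTS2 and ADAMTS3 remove the amino-terminal propeptide from fibrillar procollagens, a step without which collagen fibrils form poorly; loss of ADAMTS2 gives fragile skin in cattle. ADAMTS3 also takes part in the activation of the lymphatic growth factor VEGFC. ADAMTS6 and ADAMTS10 act on fibrillin microfibrils, the scaffold on which elastic fibres are laid down. ADAMTS12 and ADAMTS7 form a pair that cleaves cartilage oligomeric matrix protein.

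Depth ranged from 51014538 to 104406293 counts per sample, and 3 counts corresponded to 0.0287 to 0.0588 CPM (counts scaled to a common library total). Summed counts exceeded the matched reads (between 31440126 and 66287735). Levels are given as CPM scaled by TMM, a factor that balances libraries of different composition. Every member lay above this floor in all 24 samples, at 3.16 CPM or more. In 4 samples (Angus 4, Holstein 2 and Holstein 4 at hour 0, Angus 3 at hour 2) the authors' table gave fewer bases per count at COL1A1, with 66.2 to 67.1 bases for each count where the other 20 samples had 111.8 to 119. Their reads matched at 96.23% to 96.54%, above the 95.25% that was the highest of the other 20. These 4 are called counted differently below, a name for the gap at COL1A1 alone. No label gives its cause, which was not tested. At the members the bases per count of these 4 samples overlapped those of the other 20, and each call that was lost without these differently counted samples is named. Fibroblast markers summed to 37870 to 124700 CPM over 10 genes, keratinocyte markers to 0.481 to 13.9 CPM over 6 genes with KRT1 at 0 in all 24 samples, and leukocyte markers to 2.86 to 6.09 CPM over 6 genes. Endothelial and melanocyte markers summed to at most 5.22 and 12.2 CPM, and smooth muscle and pericyte markers, which include ACTA2, to 2947 to 8104 CPM. Most of the last sum was ACTA2 (2765 to 7862 CPM). CSPG4 ran from 110 to 408 CPM and MYH11 from 15.8 to 44.1, and DES and RGS5 did not exceed 1.47 and 3.64 CPM. Whether other cell types were present, and their part in the results, was not tested. Of 9 LPS response genes tested, 8 rose at hour 2 and 8 at hour 8 past the threshold below, IL8 by 8.36 and 8.62 on the log2 scale.

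Each comparison was made with a likelihood-ratio test (edgeR, Benjamini-Hochberg adjusted, given as FDR) over every line of the table with at least 1 CPM in 50% of the samples compared, and all 9 members were tested in every comparison. A gene was called changed at FDR below 0.05, and called past the threshold when it also had a fold change of 2 or more and a mean above 1 CPM. Changes are log2 fold changes from this test with their standard error (SE). Since the same animals were sampled at each hour, a second fit with the animal as a block was made, and its value is given where it alters a call.

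The genes lie on 6 chromosomes of the UMD v3.1 build of the cattle genome, on which the authors counted whole gene spans, introns included. ADAMTS5 (chr1:8811792-8861602, plus strand) and ADAMTS1 (chr1:8955134-8963831, plus strand) are neighbours, with 93531 bases of unannotated sequence between them. ADAMTS2 (chr7:1956352-2165242, plus strand) and ADAMTS10 (chr7:18391452-18408987, minus strand) share chromosome 7, and ADAMTS6 (chr20:14008347-14285012, plus strand) and ADAMTS12 (chr20:39913085-40304028, plus strand) share chromosome 20. The others are ADAMTS4 (chr3:8322536-8330396, plus strand), ADAMTS3 (chr6:89162542-89460195, minus strand) and ADAMTS9 (chr22:36876904-37038527, plus strand). The spans of ADAMTS9 and ADAMTS12 overlap other counted lines (LOC100848439 and LOC782745, and an unannotated interval each), so reads there may be shared and these 2 genes are less certain. Because a span is not a transcript length, levels are compared within a gene only.

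ADAMTS4 was the member that rose at hour 2, and 4 members (ADAMTS3, ADAMTS4, ADAMTS6 and ADAMTS12) rose while ADAMTS1 fell at hour 8, with both breeds combined and without regard to the animals shared between hours. With the animal as a block, 7 of 9 members were called at hour 2: ADAMTS4, ADAMTS10, ADAMTS3 and ADAMTS1 were higher and ADAMTS6, ADAMTS9 and ADAMTS5 lower. The share of all lines called with the block is not given here, so the blocked counts, here and below, have no baseline. Without the block, 1 of 9 members was called by FDR alone at hour 2 against hour 0, where 22.0% of all tested lines were. Past the threshold were 0, where 2.82% of lines were. At hour 8 against hour 0, 5 of 9 were called (4 higher, 1 lower) against 12.8% of lines, and again 0 were past the threshold against 1.42%. Between hour 2 and hour 8, 6 of 9 differed (ADAMTS3, ADAMTS6, ADAMTS9 and ADAMTS12 higher, ADAMTS1 and ADAMTS10 lower) against 23.8% of lines, and ADAMTS6 alone was past the threshold against 2.76%. The median change of the 9 members was 0.14, 0.51 and 0.43 on the log2 scale in these comparisons, beside -0.0039, -0.0072 and 0.0049 over all lines tested. The comparisons of hour 2 and of hour 8 with hour 0 share the hour 0 samples. Smooth muscle and pericyte markers summed to 3729 to 6095 CPM in Angus and 6603 to 8104 in Holstein at hour 0, and to 2947 to 4748 and 4018 to 5522 at hour 8. Most of these sums was ACTA2, with Angus and Holstein means of 4480 and 6762 CPM at hour 0 and 3291 and 4582 at hour 8. The part of these markers in the results was not tested.

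Several members lay close to the 2-fold limit, and the count past the threshold moved when an animal was left out. At hour 2 it was 1 (ADAMTS4) without Angus 1 or Angus 4. At hour 8 it was 1 without Angus 1, Angus 4 or Holstein 1 (ADAMTS3 in each) or without Holstein 2 or Holstein 3 (ADAMTS6), and 2 (ADAMTS3 and ADAMTS6) without Angus 2. With the animal as a block it was 1 at hour 8, ADAMTS6, which was also the member past the threshold without the 4 samples counted differently. The block left all calls in place and added 6 by FDR at hour 2, 3 at hour 8 (ADAMTS9 higher, ADAMTS2 and ADAMTS10 lower) and 2 between hour 2 and hour 8 (ADAMTS5 higher, ADAMTS2 lower).

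**Figure D1:**
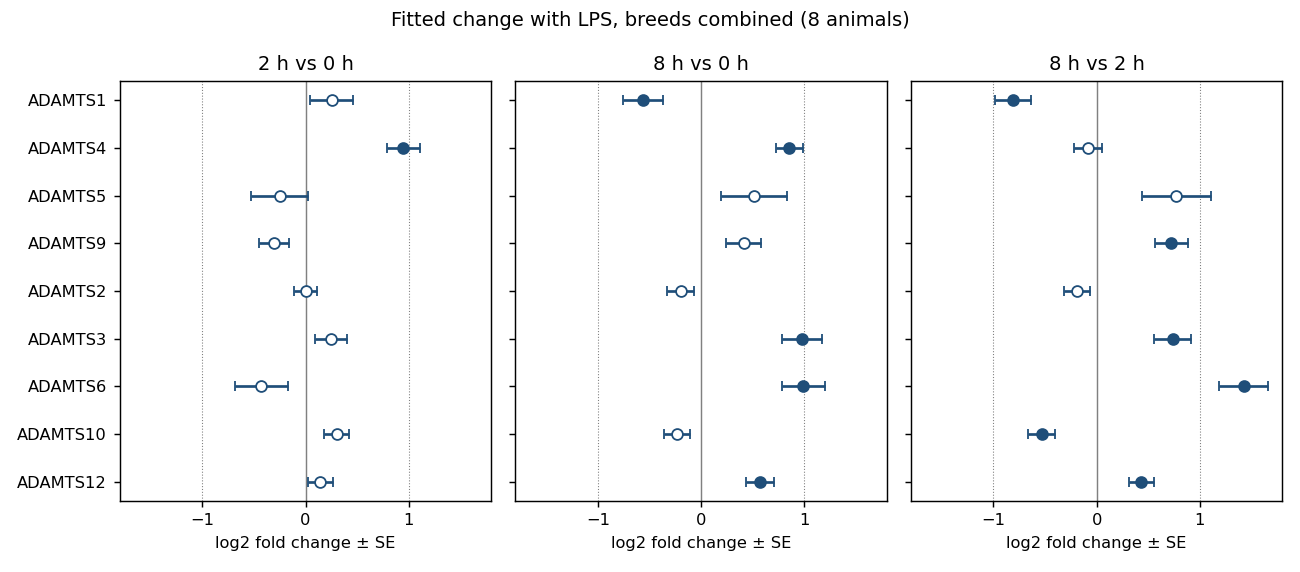
Fitted log2 fold change (x axis) of 9 ADAMTS genes (y axis) between hours, breeds combined, 8 animals; bars are 1 SE, filled points have FDR below 0.05 and dotted lines mark a 2-fold change. ADAMTS4 is the filled point at hour 2 (0.95), and ADAMTS6 lies past the 2-fold line between hour 2 and hour 8 (1.43).

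ADAMTS4, the aggrecanase commonly induced by inflammatory signals, was higher after LPS in every animal. ADAMTS4 in the Angus cultures (animals 1 to 4 in order, here and below) was at 13.4, 12.1, 9.56 and 18.3 CPM at hour 0, 17.0, 20.1, 27.7 and 21.8 CPM at hour 2 and 19.8, 22.9, 19.4 and 22.5 CPM at hour 8. ADAMTS4 in the Holstein cultures was at 11.4, 10.4, 12.9 and 10.5 CPM at hour 0, 18.7, 31.1, 23.8 and 30.2 CPM at hour 2 and 21.1, 28.9, 22.3 and 22.0 CPM at hour 8. All 4 Holstein samples at hour 0 lay below all 16 LPS samples of both breeds, whereas Angus 4 at hour 0 (18.3 CPM) overlapped the Angus samples of hour 2. Group means were 13.3 ± 3.66, 21.6 ± 4.53 and 21.2 ± 1.82 CPM at hours 0, 2 and 8 in Angus and 11.3 ± 1.14, 26.0 ± 5.85 and 23.6 ± 3.59 CPM at hours 0, 2 and 8 in Holstein (SD, n = 4). With breeds combined ADAMTS4 rose by 0.95 (SE 0.16, FDR = 8.56e-08) at hour 2 and by 0.86 (SE 0.13, FDR = 3.55e-09) at hour 8, and its difference between hour 2 and hour 8 was -0.086 (SE 0.14, FDR = 0.730), with a 95% interval of -0.35 to 0.18. The change per animal on the log2(CPM + 1) scale ran from 0.24 (Angus 4) to 1.49 (Holstein 2) at hour 2.

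Within Holstein, ADAMTS4 rose past the threshold at both hours, by 1.20 (SE 0.18, FDR = 7.00e-10) and 1.06 (SE 0.14, FDR = 1.24e-12). In Angus it rose by 0.70 (SE 0.23, FDR = 0.0220) and 0.66 (SE 0.20, FDR = 0.0273). The Angus calls were not made without single animals: at hour 2 the FDR was 0.0652 without Angus 1, 0.185 without Angus 2 and 0.185 without Angus 3, whose removal left 0.43. At hour 8 the FDR without the same animals was 0.230, 0.409 and 0.0769. With a quasi-likelihood F test the Angus FDR was 0.0654 and 0.108, and without the filter on low counts 0.0502 and 0.0669. The difference between the breeds in this response was 0.51 (SE 0.30) at hour 2 and 0.39 (SE 0.24) at hour 8, with 95% intervals of -0.075 to 1.10 and -0.079 to 0.86 and an FDR of 1.00 and 1.00.

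**Figure D2:**
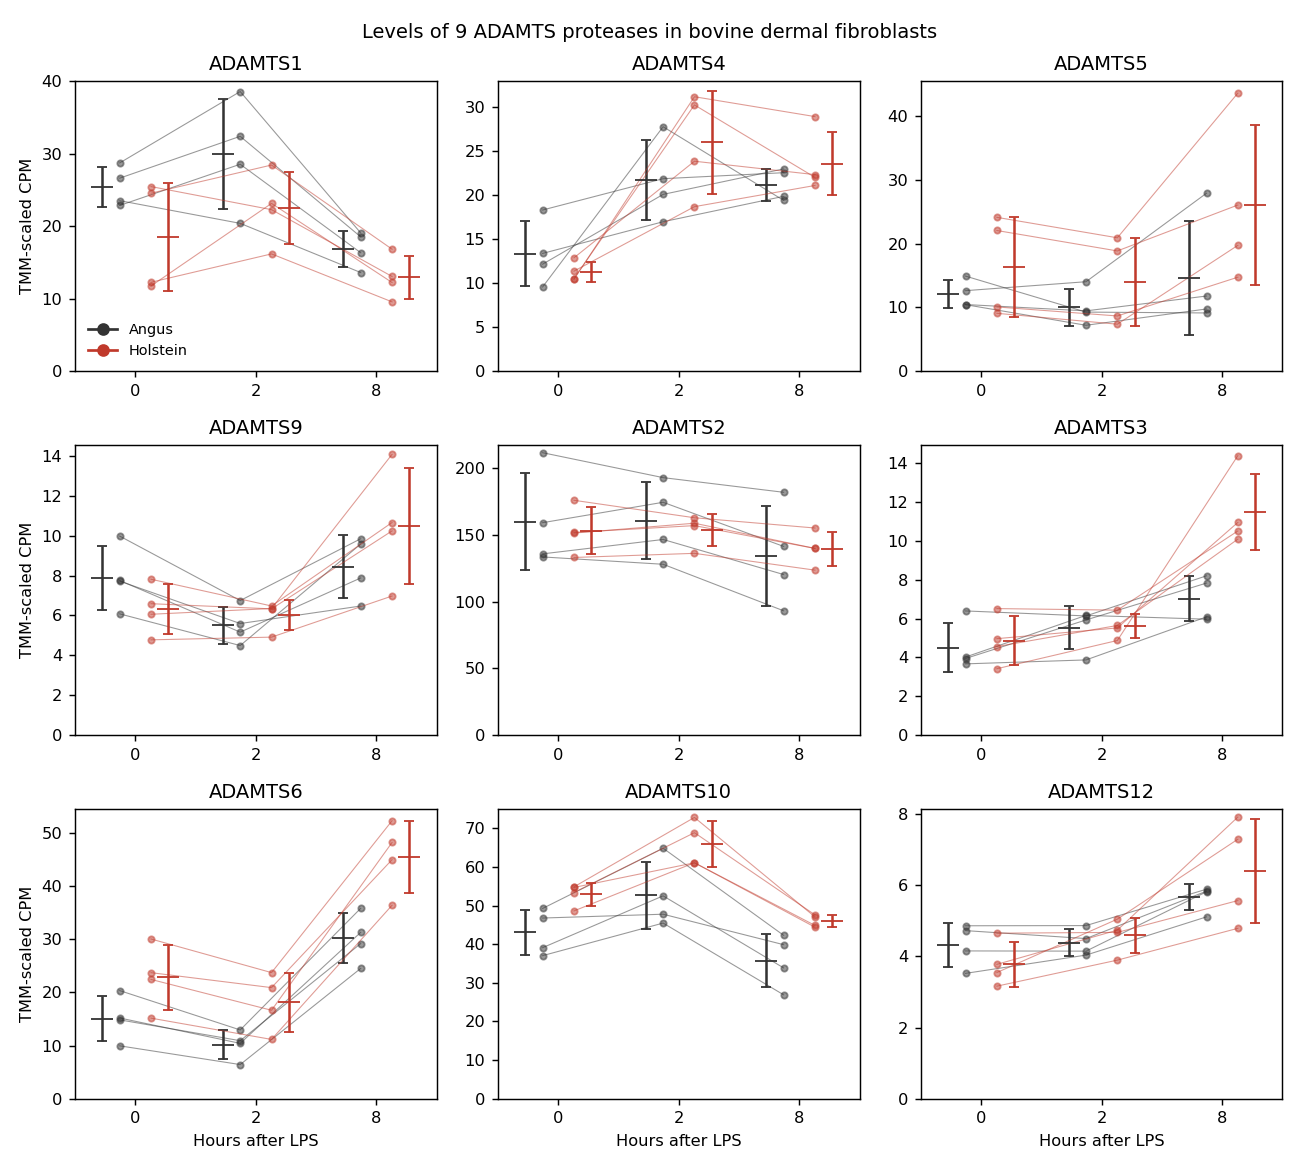
TMM-scaled CPM (y axes, each starting at 0) of 9 ADAMTS genes at hours 0, 2 and 8 of LPS (x axis). Points joined by lines are the 4 Angus (dark grey) and 4 Holstein (red) animals, and dashes with bars are group means with 1 SD. ADAMTS6 is lower at hour 2 and higher at hour 8 than at hour 0 in all 8 animals, and ADAMTS3 in Holstein reaches 10.1 to 14.4 CPM at hour 8.

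ADAMTS1, which cleaves versican and aggrecan, was lower at hour 8. ADAMTS1 in the Angus cultures was at 22.9, 23.5, 28.7 and 26.6 CPM at hour 0, 28.5, 20.4, 38.6 and 32.4 CPM at hour 2 and 16.3, 13.6, 19.1 and 18.5 CPM at hour 8. ADAMTS1 in the Holstein cultures was at 24.6, 25.5, 12.3 and 11.8 CPM at hour 0, 28.4, 22.3, 16.2 and 23.1 CPM at hour 2 and 16.8, 13.1, 9.57 and 12.2 CPM at hour 8. The Angus samples of hour 8 lay below all Angus samples of hours 0 and 2, whereas in Holstein the hours overlapped, with Holstein 3 and 4 at 12.3 and 11.8 CPM at hour 0. With breeds combined ADAMTS1 fell between hour 0 and hour 8, with a log2 change of -0.57 (SE 0.20, FDR = 0.0346). Between hour 2 and hour 8 it fell in 8 of 8 animals, with -0.81 (SE 0.18, FDR = 7.65e-05). From hour 0 to hour 8 it was lower in 7 of 8 animals, Holstein 4 being the exception.

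The fall of ADAMTS1 from hour 0 to hour 8 was close to the limit. Without Angus 1, 2, 3 or 4 the FDR was 0.0747, 0.109, 0.0702 and 0.0540, and without Holstein 1 or 2 it was 0.0941 and 0.134. It was 0.0675 without the filter on low counts and 0.0585 with the F test, and 1.56e-07 with the animal as a block. Within Angus ADAMTS1 fell at hour 8, with -0.60 (SE 0.15, FDR = 0.00420), a call not made with the F test (FDR = 0.0559), in the joint fit of all 24 samples (FDR = 0.141), or without Angus 1 or 2 (FDR = 0.0650 and 0.0642). In Holstein the value was -0.52 (SE 0.29, FDR = 0.267), or -0.45 (SE 0.16, FDR = 0.0140) with the block. At hour 2 the combined value was 0.25 (SE 0.21, FDR = 0.473) with a 95% interval of -0.16 to 0.66, and 0.27 (SE 0.11, FDR = 0.0381) with the block, a call that the F test with the block did not make (FDR = 0.0624).

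ADAMTS5, the main aggrecanase of mouse cartilage, differed widely between animals. It was called in LPS comparisons only with the animal as a block or in the joint fit. ADAMTS5 in the Angus cultures was at 10.5, 10.4, 12.6 and 14.9 CPM at hour 0, 9.46, 7.20, 14.0 and 9.26 CPM at hour 2 and 11.8, 9.76, 27.9 and 9.13 CPM at hour 8. ADAMTS5 in the Holstein cultures was at 22.0, 9.08, 10.1 and 24.1 CPM at hour 0, 18.8, 7.37, 8.66 and 20.9 CPM at hour 2 and 26.0, 19.7, 14.7 and 43.6 CPM at hour 8. Holstein 1 and 4 were the highest at every hour among the Holstein cultures, and Angus 3 at hour 8 stood apart from the other Angus samples of that hour. The combined values were -0.25 (SE 0.28, FDR = 0.630) at hour 2 and 0.51 (SE 0.32, FDR = 0.335) at hour 8, with 95% intervals of -0.79 to 0.29 and -0.12 to 1.14, and 0.77 (SE 0.33, FDR = 0.0801) between hour 2 and hour 8. With the animal as a block, which removes the constant differences between cultures, they were -0.27 (SE 0.087, FDR = 0.00487), 0.41 (SE 0.18, FDR = 0.0653) and 0.69 (SE 0.14, FDR = 7.90e-06). In the joint fit of all samples the last FDR was 0.0411. Within Holstein the hour 8 value was 0.68 (SE 0.41, FDR = 0.313), or 0.69 (SE 0.14, FDR = 1.33e-05) with the block, and ADAMTS5 was higher at hour 8 than at hour 0 in 4 of 4 Holstein and 2 of 4 Angus animals. For Holstein at hour 2 the blocked value was -0.24 (SE 0.065, FDR = 0.00104), beside -0.23 (SE 0.43, FDR = 0.854) without it.

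The unannotated interval between ADAMTS5 and ADAMTS1 (chr1:8861603-8955133) carried counts of its own. Its lowest, median and highest levels were 9.87, 17.5 and 59.5 CPM over the 24 samples. Across those samples its level had a Pearson r of 0.967 with ADAMTS5 (0.958 after removing group means) and of -0.339 with ADAMTS1 (0.295), a description with no test, in which all 3 values of a sample share its library. The interval was at 59.5 CPM in Holstein 4 and at 39.5 CPM in Angus 3 at hour 8, the 2 samples in which ADAMTS5 was highest. Its own changes were -0.20 (SE 0.28, FDR = 0.722) at hour 2, 0.54 (SE 0.30, FDR = 0.265) at hour 8 and 0.75 (SE 0.34, FDR = 0.103) between hour 2 and hour 8, none of them called. Both genes are on the plus strand, and how strand was treated in the counting is not given, so the strand of these reads cannot be told.

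**Figure D3:**
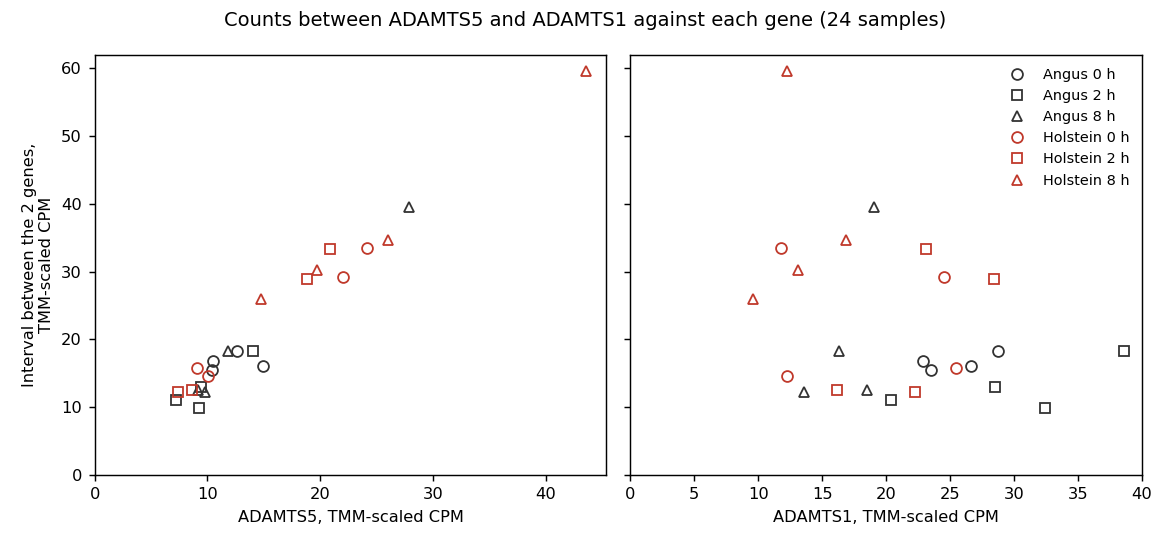
TMM-scaled CPM of the unannotated interval between ADAMTS5 and ADAMTS1 (y axis) against ADAMTS5 (left x axis) and ADAMTS1 (right x axis) in 24 samples; colours are breeds and symbols hours. The points lie along a line for ADAMTS5 (r = 0.967) and scatter for ADAMTS1 (r = -0.339).

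ADAMTS9, a versican-cleaving member retained near the cell surface, was lowest at hour 2 and highest at hour 8. Its group means were 7.88 ± 1.60, 5.50 ± 0.949 and 8.45 ± 1.58 CPM at hours 0, 2 and 8 in Angus and 6.31 ± 1.26, 6.02 ± 0.739 and 10.5 ± 2.91 CPM at hours 0, 2 and 8 in Holstein (SD, n = 4). Between hour 2 and hour 8 it rose by 0.73 (SE 0.16, FDR = 6.55e-05), in 8 of 8 animals. Against hour 0 the values were -0.31 (SE 0.15, FDR = 0.128) at hour 2 and 0.41 (SE 0.17, FDR = 0.0942) at hour 8, and -0.29 (SE 0.10, FDR = 0.00703) and 0.40 (SE 0.14, FDR = 0.0177) with the block. The hour 8 FDR was 0.0415 without Angus 4 and 0.0246 in the joint fit. Within Holstein ADAMTS9 rose at hour 8 by 0.74 (SE 0.23, FDR = 0.0161), although not without Holstein 2 (FDR = 0.105), Holstein 4 (FDR = 0.231), the samples counted differently (FDR = 0.182) or with the F test (FDR = 0.0538).

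At hour 2 the breeds did not overlap in the change of ADAMTS9 per animal. Over all members and pairs of hours, the only other change without overlap was that of ADAMTS3 from hour 2 to hour 8. The share of all lines without overlap was not computed, for changes or for levels. It was lower in 4 of 4 Angus animals, by a mean log2(CPM + 1) change of -0.445 ± 0.0707 (SD), and the Holstein mean was -0.0492 ± 0.134, with 2 of 4 animals higher. The Angus change was -0.52 (SE 0.21, FDR = 0.0839), or -0.52 (SE 0.11, FDR = 1.10e-05) with the block, and its FDR with DESeq2 was 0.0368. In Holstein it was -0.073 (SE 0.19, FDR = 0.906). The test of the difference itself gave 0.46 (SE 0.27, FDR = 1.00), with a 95% interval of -0.066 to 0.99, while the fit with the animal as a block gave 0.46 (SE 0.13, FDR = 0.0151), and 0.0473 for the FDR of the F test with that block. At hour 8 the difference was 0.63 (SE 0.31), with FDR = 1.00, beside 0.60 (SE 0.23, FDR = 0.160) with the block.

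The procollagen N-proteinases behaved differently from each other: ADAMTS3 rose at hour 8, and ADAMTS2 was called only with the animal as a block, as lower at hour 8. ADAMTS3 in the Angus cultures was at 6.39, 3.67, 3.94 and 4.02 CPM at hour 0, 6.13, 3.87, 5.93 and 6.16 CPM at hour 2 and 8.20, 6.08, 7.83 and 5.97 CPM at hour 8. ADAMTS3 in the Holstein cultures was at 6.51, 4.96, 4.56 and 3.42 CPM at hour 0, 6.43, 5.52, 5.64 and 4.87 CPM at hour 2 and 10.5, 11.0, 10.1 and 14.4 CPM at hour 8. The 4 Holstein samples of hour 8 lay above all 20 other samples, and Angus 1 at hour 0 stood above the other Angus samples of that hour. With breeds combined ADAMTS3 rose by 0.98 (SE 0.20, FDR = 3.46e-05) at hour 8 and by 0.74 (SE 0.18, FDR = 4.46e-04) between hour 2 and hour 8, and from hour 0 to hour 8 it was higher in 8 of 8 animals. The Holstein rise at hour 8 was past the threshold, 1.24 (SE 0.21, FDR = 2.99e-07), and was 0.97, just under the 2-fold limit, without Holstein 4.

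In Angus the ADAMTS3 value at hour 8 was 0.64 (SE 0.23, FDR = 0.103), and 0.66 (SE 0.14, FDR = 5.75e-05) with the block. It passed FDR without Angus 1 (0.77, FDR = 0.0295), with DESeq2 (FDR = 0.0424) and in the joint fit (FDR = 0.0357). The difference between the breeds in the hour 8 response was 0.59 (SE 0.31, unadjusted p = 0.056, FDR = 1.00, edgeR), with a 95% interval of -0.015 to 1.20, or 0.59 (SE 0.27, FDR = 0.324) with the block. At hour 2 the combined value was 0.25 (SE 0.16, FDR = 0.313), or 0.27 (SE 0.10, FDR = 0.0207) with the block.

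At hour 0, ADAMTS2 ranged from 134 to 212 CPM in the Angus samples and from 133 to 176 CPM in the Holstein samples, and its group means were 160.2 ± 36.4, 161 ± 28.9 and 134 ± 37.5 CPM at hours 0, 2 and 8 in Angus and 153 ± 17.6, 154 ± 11.9 and 139.7 ± 12.9 CPM at hours 0, 2 and 8 in Holstein (SD, n = 4). Every group overlapped every other group. Its combined changes were 9.14e-04 (SE 0.11, FDR = 0.998) at hour 2, with a 95% interval of -0.22 to 0.22, and -0.20 (SE 0.13, FDR = 0.371) at hour 8, with an interval of -0.46 to 0.060. It was nevertheless lower at hour 8 than at hour 0 in 8 of 8 animals, and lower than at hour 2 in 8 of 8. With the animal as a block the values were -0.21 (SE 0.054, FDR = 6.03e-04) against hour 0 and -0.21 (SE 0.055, FDR = 5.95e-04) against hour 2. Within the breeds at hour 8 they were -0.28 (SE 0.086, FDR = 0.00998) in Angus and -0.13 (SE 0.054, FDR = 0.0485) in Holstein, beside -0.26 (SE 0.23, FDR = 0.727) and -0.13 (SE 0.11, FDR = 0.532) without it.

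Between hour 2 and hour 8, ADAMTS6 rose and ADAMTS10, the other fibrillin-directed member, fell. ADAMTS6 was lower at hour 2 than at hour 0 in 8 of 8 animals and higher at hour 8 in 8 of 8. ADAMTS6 in the Angus cultures was at 9.96, 20.3, 15.2 and 14.8 CPM at hour 0, 6.43, 12.9, 10.4 and 10.9 CPM at hour 2 and 24.5, 35.8, 31.3 and 29.2 CPM at hour 8. ADAMTS6 in the Holstein cultures was at 22.4, 30.0, 23.7 and 15.2 CPM at hour 0, 16.6, 23.7, 20.9 and 11.2 CPM at hour 2 and 48.2, 52.3, 45.0 and 36.4 CPM at hour 8. The Holstein samples of hour 8 lay above all 20 other samples, and within each breed the hour 8 samples lay above those of hours 0 and 2. With breeds combined ADAMTS6 rose by 0.99 (SE 0.21, FDR = 9.39e-05) from hour 0 to hour 8 and by 1.43 (SE 0.24, FDR = 1.01e-07) from hour 2 to hour 8, the only change of a member past the threshold in the combined comparisons. At hour 2 the value was -0.43 (SE 0.26, FDR = 0.273) with a 95% interval of -0.93 to 0.081; with the animal as a block it was -0.46 (SE 0.062, FDR = 2.91e-12), and in the joint fit the FDR was 0.0314.

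The hour 8 rise of ADAMTS6 was 1.00 (SE 0.22, FDR = 8.04e-04) in Angus and 0.99 (SE 0.20, FDR = 1.93e-05) in Holstein, and their difference was -0.014 with a 95% interval of -0.62 to 0.59. The Angus call was not made with the F test (FDR = 0.0560), and ADAMTS6 crossed the 2-fold limit in Angus without Angus 2 or Angus 4, with the block and in the joint fit. At hour 2 the blocked values were -0.57 (SE 0.090, FDR = 5.10e-09) in Angus and -0.35 (SE 0.071, FDR = 5.88e-06) in Holstein, beside -0.57 (SE 0.27, FDR = 0.171) and -0.34 (SE 0.26, FDR = 0.473) without it. The change per animal from hour 0 to hour 2 on the log2(CPM + 1) scale was -0.522 ± 0.0872 in Angus and -0.331 ± 0.111 in Holstein (SD, n = 4), and from hour 0 to hour 8 it was 0.983 ± 0.180 and 0.988 ± 0.190.

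ADAMTS10 was highest at hour 2 and lowest at hour 8. Its group means were 43.0 ± 5.89, 52.6 ± 8.64 and 35.7 ± 6.87 CPM at hours 0, 2 and 8 in Angus and 52.9 ± 2.92, 65.9 ± 5.86 and 46.0 ± 1.58 CPM at hours 0, 2 and 8 in Holstein (SD, n = 4), and in Holstein the ranges of the 3 hours (48.6 to 54.8, 61.1 to 72.8 and 44.4 to 47.6 CPM) did not overlap. It fell between hour 2 and hour 8 in 8 of 8 animals, with -0.53 (SE 0.13, FDR = 6.59e-04). Against hour 0 it was higher in 8 of 8 animals at hour 2 and lower in 8 of 8 at hour 8, with combined values of 0.30 (SE 0.12, FDR = 0.0528) and -0.24 (SE 0.13, FDR = 0.236). With the animal as a block these were 0.30 (SE 0.053, FDR = 1.36e-07) and -0.24 (SE 0.048, FDR = 3.50e-06). The hour 2 FDR was 0.0467 without Angus 3, 0.0274 without Angus 4, 0.0477 with RLE scaling, 0.0358 with DESeq2 and 0.00590 in the joint fit. Within Holstein ADAMTS10 rose at hour 2 by 0.31 (SE 0.10, FDR = 0.00909), although not without Holstein 2 (FDR = 0.0829), Holstein 3 (FDR = 0.102), the samples counted differently (FDR = 0.153) or in the joint fit (FDR = 0.115). In Holstein at hour 8 the value was -0.20 (SE 0.083, FDR = 0.0887), and -0.20 (SE 0.054, FDR = 0.00133) with the block, with an FDR of 0.00676 by DESeq2 and 0.0494 by the F test. The blocked Angus values were 0.29 (SE 0.085, FDR = 0.00364) at hour 2 and -0.28 (SE 0.080, FDR = 0.00376) at hour 8, beside 0.29 (SE 0.16, FDR = 0.274) and -0.27 (SE 0.18, FDR = 0.548) without it.

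ADAMTS12 rose at hour 8 from a low level. Its group means were 4.31 ± 0.610, 4.38 ± 0.375 and 5.66 ± 0.369 CPM at hours 0, 2 and 8 in Angus and 3.78 ± 0.631, 4.59 ± 0.489 and 6.39 ± 1.46 CPM at hours 0, 2 and 8 in Holstein (SD, n = 4). The samples of hour 8 lay above those of hour 0 in both breeds. With breeds combined it rose by 0.57 (SE 0.13, FDR = 4.90e-04) from hour 0 and by 0.43 (SE 0.12, FDR = 0.00297) from hour 2, in 8 of 8 animals for both. In Holstein it rose by 0.76 (SE 0.21, FDR = 0.00386), although not without Holstein 1 (FDR = 0.0993) or Holstein 2 (FDR = 0.109), and in Angus the value was 0.39 (SE 0.17, FDR = 0.233), or 0.40 (SE 0.12, FDR = 0.0107) with the block. At hour 2 the combined value was 0.14 (SE 0.12, FDR = 0.478), with a 95% interval of -0.091 to 0.38. The unannotated interval that overlaps ADAMTS12 (309498 bases) rose at hour 8 as well, by 0.60 (SE 0.13, FDR = 7.84e-05).

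**Figure D4:**
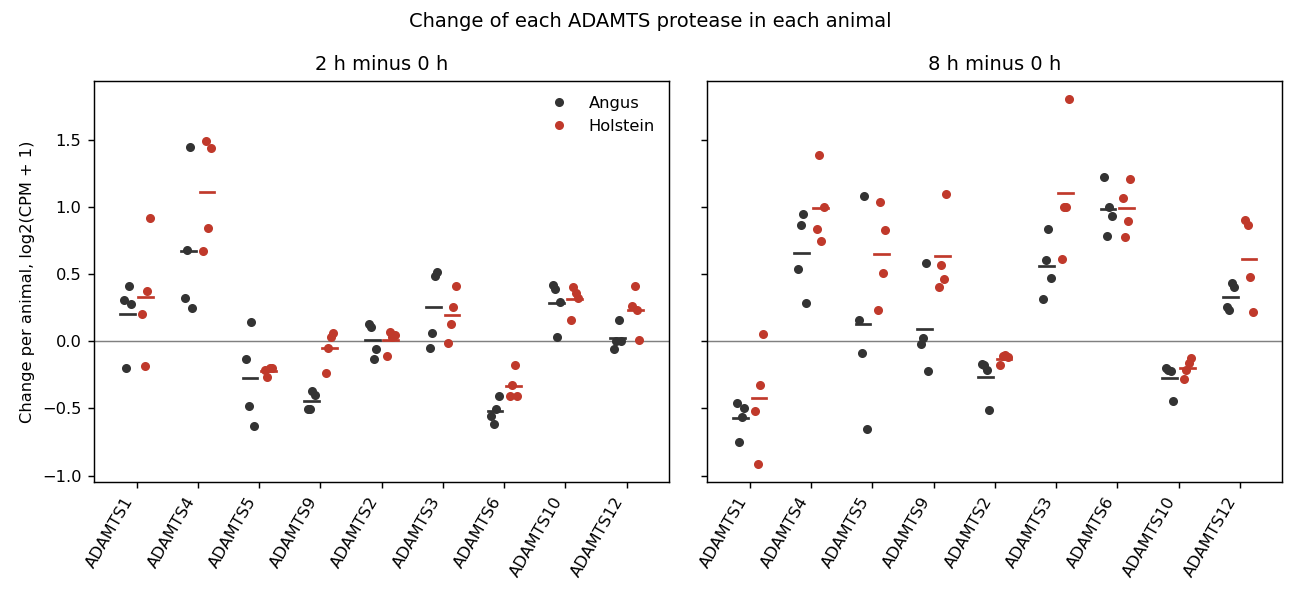
Change of each ADAMTS gene in each animal on the log2(CPM + 1) scale (y axis), hour 2 minus hour 0 (left) and hour 8 minus hour 0 (right); points are animals (4 Angus, 4 Holstein) and dashes the breed means. ADAMTS4 lies above 0 in all 8 animals in both panels, and ADAMTS6 below 0 on the left and above 0 on the right.

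Within the breeds, the members called at hour 2 were ADAMTS4 in Angus (1 of 9, where 13.8% of lines were called by FDR alone) and ADAMTS4 and ADAMTS10 in Holstein (2 of 9, where 17.2% were). Past the threshold at hour 2 were 0 in Angus, against 2.98% of lines, and 1 in Holstein (ADAMTS4), against 3.14%. At hour 8, 3 of 9 were called in Angus (ADAMTS4 and ADAMTS6 higher, ADAMTS1 lower) against 3.90% of lines, and 5 of 9 in Holstein (ADAMTS3, ADAMTS4, ADAMTS6, ADAMTS9 and ADAMTS12, all higher) against 14.7%. Past the threshold at hour 8 were 0 in Angus, against 0.863% of lines, and 2 in Holstein (ADAMTS3 and ADAMTS4), against 2.51%. The Holstein count at hour 8 ran from 1 to 3 as single animals were left out and was 1 without Holstein 4 (ADAMTS3 then at 0.97) and 1 without the samples counted differently (ADAMTS4 then at 0.97), and the Angus count was 1 without Angus 2 or Angus 4 (ADAMTS6). The median change of the members at hour 8 was 0.27 in Angus and 0.74 in Holstein, beside -0.0081 and -0.0014 over all lines. A call in a single breed is not a difference between the breeds.

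That difference was tested directly, and no member was called in the interaction of breed and LPS. At hour 2, 0 of 9 passed FDR (0.437% of lines did) or the threshold (0.278%), and at hour 8, 0 of 9 did (0.137% and 0.0982%); at an unadjusted p below 0.05 there were 0 and 1 (ADAMTS9), in edgeR. DESeq2 and the F test also called 0 members at both hours, and the fit with the animal as a block called ADAMTS9 at hour 2. The median of the members was 0.058 at hour 2 and 0.37 at hour 8, beside 0.012 and -0.0017 over all lines.

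Between breeds, ADAMTS6 was higher in Holstein DF at hours 2 and 8 and ADAMTS3 at hour 8, and no member was called at hour 0. At hour 0, 0 of 9 members were called by FDR (13.8% of lines were) and 0 past the threshold (3.81%), with 2 at an unadjusted p below 0.05, and DESeq2 and the F test called 0 as well. At hour 2, 1 of 9 was called (20.1% of lines) and 0 past the threshold (4.45%), and at hour 8, 2 of 9 (16.5%) and 0 past the threshold (3.24%). The median difference of the members, Holstein minus Angus, was -0.064, 0.13 and 0.32 at hours 0, 2 and 8. Marker sums also differed with breed. Fibroblast markers summed to 53290 to 68850 CPM in Angus against 72570 to 124700 in Holstein at hour 0, 43290 to 88420 against 70650 to 85750 at hour 2, where they overlapped, and 37870 to 59000 against 61740 to 79090 at hour 8. This sum includes COL1A1, at which 4 samples were counted differently, with hour 0 means of 14740 CPM in Angus and 26050 in Holstein. Of the 10 markers, 3 were called higher in Holstein at hour 0 and 1 lower, where 13.8% of lines were called. Hour 0 means of VIM (5775 and 4893 CPM) and PDGFRA (305 and 160) were higher in Angus. For smooth muscle and pericyte markers, mostly ACTA2, the Angus and Holstein sums were 3729 to 6095 and 6603 to 8104 CPM at hour 0, 4541 to 6938 and 6358 to 7435 at hour 2, and 2947 to 4748 and 4018 to 5522 at hour 8. For melanocyte markers the Angus and Holstein sums were 10.3 to 11.4 and 5.84 to 7.92 CPM at hour 0, 6.13 to 7.85 and 5.63 to 6.33 at hour 2, and 9.34 to 12.2 and 6.52 to 8.43 at hour 8, and for endothelial markers 2.08 to 2.95 and 3.19 to 4.77 at hour 2 and 2.63 to 3.33 and 3.54 to 5.22 at hour 8. The melanocyte gap at hour 0 lay mostly in MITF, with means of 8.16 CPM in Angus and 4.44 in Holstein. PMEL (1.96 and 1.82), DCT (0.215 and 0.205) and TYR (0.533 and 0.537) were close, and MLANA (0.0489 and 0.0782) was higher in Holstein. Keratinocyte markers summed to 0.485 to 0.724 CPM in Angus and 0.830 to 13.9 in Holstein at hour 8, with KRT1 at 0 in every sample. The top of that range was mostly KRT5, with a highest value of 10.2 CPM beside a median of 0.0468 over the 24 samples. Its Holstein mean at hour 8 was 2.79 CPM, so single samples weigh heavily in it. The part of these marker differences in the results was not tested.

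ADAMTS6 differed by 0.60 (SE 0.25, FDR = 0.0980) at hour 0, 0.82 (SE 0.28, FDR = 0.0219) at hour 2 and 0.59 (SE 0.16, FDR = 0.00299) at hour 8, Holstein minus Angus. The ranges of the breeds overlapped at hours 0 and 2, and at hour 8 all 4 Holstein samples (36.4 to 52.3 CPM) lay above all 4 Angus samples (24.5 to 35.8 CPM). The hour 0 difference was called without Angus 2 (0.78, FDR = 0.0297) or Holstein 4 (0.75, FDR = 0.0263). At hour 2 it was not called without Angus 1 (FDR = 0.0772), Angus 4 (FDR = 0.0538), Holstein 2 (FDR = 0.110) or Holstein 3 (FDR = 0.0817), or with the F test (FDR = 0.0609), and without Holstein 4 it was past the threshold. In the joint fit the hour 8 FDR was 0.0705.

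ADAMTS3 differed by 0.72 (SE 0.18, FDR = 0.00219) at hour 8, with no overlap between the breeds, and by 0.11 (SE 0.26, FDR = 0.825) and 0.018 (SE 0.20, FDR = 0.961) at hours 0 and 2, where the 95% intervals were -0.39 to 0.62 and -0.37 to 0.41. The change per animal from hour 2 to hour 8 did not overlap between the breeds either, with means of 0.304 ± 0.245 in Angus and 0.909 ± 0.336 in Holstein (SD, n = 4, log2(CPM + 1)). For ADAMTS10 the differences were 0.30, 0.32 and 0.37 at hours 0, 2 and 8, with an FDR of 0.0943, 0.0943 and 0.0725, and at hour 8 its ranges did not overlap (26.9 to 42.3 against 44.4 to 47.6 CPM). Without Angus 2 its FDR was 0.0456, 0.0101 and 0.0311 at the 3 hours, without Angus 3 it was 0.0485 at hour 0 and 0.0386 at hour 8, and in the joint fit 0.0450 at hour 2 and 0.0341 at hour 8. For ADAMTS1 the differences were -0.46, -0.42 and -0.38, with an FDR of 0.262, 0.186 and 0.158; it was called at hour 2 without Angus 2 (-0.57, FDR = 0.0434) and at hour 8 without Holstein 1 (-0.53, FDR = 0.0309).

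ADAMTS5 had the largest SE of the members in each breed comparison. It differed by 0.43 (SE 0.33, FDR = 0.418), 0.48 (SE 0.37, FDR = 0.386) and 0.83 (SE 0.43, FDR = 0.183) at hours 0, 2 and 8, with 95% intervals of -0.21 to 1.07, -0.24 to 1.20 and -0.014 to 1.68. The hour 8 value turned on Angus 3 (27.9 CPM): without that animal it was 1.35 (FDR = 0.00138), past the threshold. For ADAMTS4 the differences were -0.24, 0.26 and 0.16 (FDR = 0.473, 0.415 and 0.461), for ADAMTS9 -0.32, 0.13 and 0.32 (FDR = 0.331, 0.683 and 0.378). For ADAMTS2 the 95% intervals were -0.40 to 0.27, -0.36 to 0.22 and -0.32 to 0.44, and for ADAMTS12 -0.58 to 0.19, -0.26 to 0.38 and -0.19 to 0.55, with no call at any hour.

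**Figure D5:**
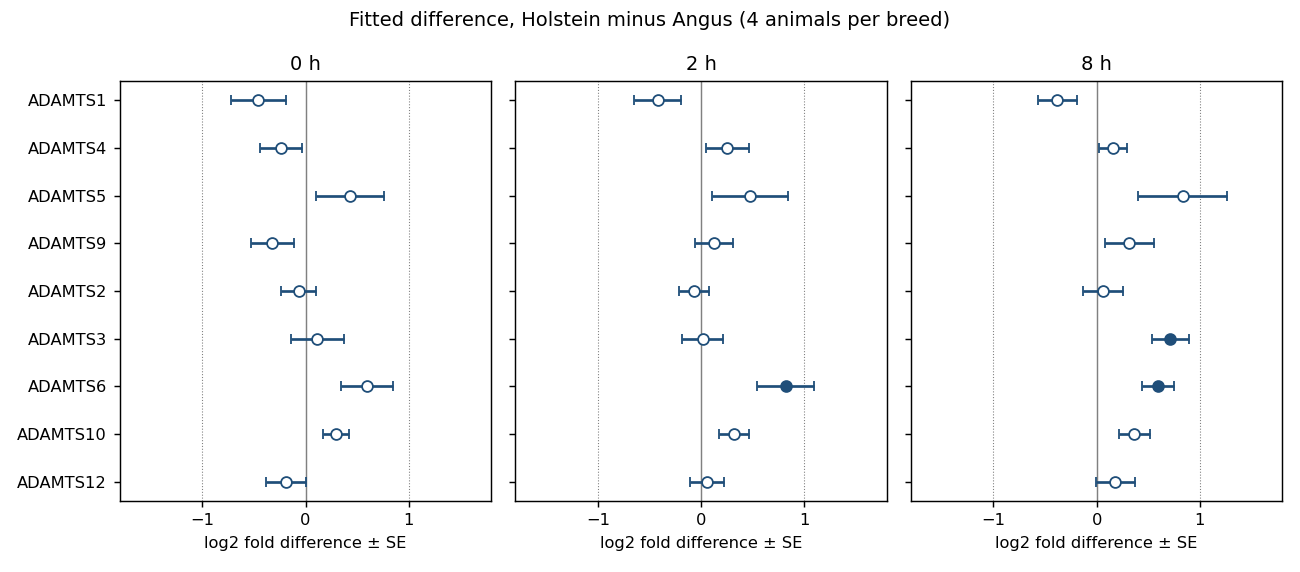
Fitted log2 difference, Holstein minus Angus (x axis), of 9 ADAMTS genes (y axis) at hours 0, 2 and 8, with 4 animals per breed; bars are 1 SE, filled points have FDR below 0.05 and dotted lines mark a 2-fold difference. ADAMTS6 is filled at hours 2 and 8 (0.82 and 0.59) and ADAMTS3 at hour 8 (0.72).

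The other ADAMTS proteases were mostly low. Of 9 further genes, 5 were tested in the combined comparisons, and ADAMTS8, ADAMTS13, ADAMTS15 and ADAMTS18 did not exceed 0.151 CPM in any sample. ADAMTS14, the third procollagen N-proteinase, rose by 0.89 (SE 0.19, FDR = 5.60e-05) at hour 2, the 1 of 5 called there, and fell past the threshold between hour 2 and hour 8 (-1.53, SE 0.23, FDR = 1.63e-09), while 0 of 5 were called at hour 8. By FDR alone 22.0% of all lines were called at hour 2, 12.8% at hour 8 and 23.8% between hour 2 and hour 8. Past the threshold between hour 2 and hour 8 were 2.76% of lines. Between breeds ADAMTS16 was higher in Holstein at every hour, past the threshold at hour 2 (1.12, SE 0.29, FDR = 0.00187), and ADAMTS20 was lower at hours 0 and 8 (-0.49 and -0.57). Among the ADAMTS-like proteins, which share the ancillary domains and lack the protease, 0 of 4 were called after LPS in the combined comparisons, beside the same shares of all lines. ADAMTSL1 was lower in Holstein past the threshold at all 3 hours, by -1.72 (SE 0.24, FDR = 1.09e-09), -1.63 (SE 0.28, FDR = 1.12e-06) and -1.76 (SE 0.24, FDR = 6.03e-10). ADAMTSL4, which binds fibrillin, was higher in Holstein at hours 0 and 2 (0.81 and 0.86).

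Of the inhibitors, activators and clearance receptors of these enzymes, 3 of 10 tested rose at hour 2 and 0 fell, where 22.0% of all lines were called. FURIN, the convertase that removes the ADAMTS prodomain, rose by 1.18 (SE 0.12, FDR = 1.56e-18), SDC4, a proteoglycan that takes part in ADAMTS activation at the cell surface, by 1.76 (SE 0.18, FDR = 3.01e-20), and TIMP3, their main tissue inhibitor, by 0.83 (SE 0.15, FDR = 2.10e-06). At hour 8, where 12.8% of lines were called, TIMP3 and SDC4 rose (0.63 and 0.62), and RECK, a membrane inhibitor of metalloproteinases, fell (-0.34). Between hour 2 and hour 8, 2 of 10 fell (23.8% of lines were called), SDC4 past the threshold (-1.13) and FURIN (-0.79). The list's median was 0.051 at hour 2 and -0.11 at hour 8. Between breeds at hour 0, 3 of 10 were higher in Holstein, among them FN1, which encodes fibronectin, past the threshold (1.22, SE 0.19, FDR = 1.08e-07), and TIMP1 (0.75), and 2 were lower, PCSK5, another convertase (-0.87), and SDC4 (-0.47), where 13.8% of lines were called. Members named here and in the next lists below the 2-fold limit were picked after their values were seen.

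Among 7 tested proteoglycan substrates and partners, 2 rose at both hours, HAS2 and CD44, where 22.0% of lines were called at hour 2 and 12.8% at hour 8. HAS2, a hyaluronan synthase, rose by 4.24 (SE 0.41, FDR = 6.97e-18) at hour 2 and 3.40 (SE 0.34, FDR = 2.17e-17) at hour 8, and CD44, the hyaluronan receptor, by 0.71 and 0.86. ACAN, which encodes aggrecan, was higher in Holstein past the threshold at all hours (2.56, 2.26 and 2.39), HAS1 at hour 2 (1.85), and VCAN, which encodes versican, at hour 8 by 0.69 (SE 0.20, FDR = 0.00721). HAPLN3, a link protein gene, was lower in Holstein at hour 8 (-0.59, SE 0.18, FDR = 0.0105), so that 2 of the 7 tested there were higher and 1 lower, against 16.5% of lines. Of 10 tested genes of fibrillar procollagens and their processing, BMP1, the procollagen C-proteinase, rose at hours 2 and 8 (0.71 and 0.47). COL1A1 was lower at hour 8 (-1.35, SE 0.35, FDR = 0.00310), but it is the gene at which 4 samples were counted differently, most of them at hour 0. Its means at hours 0, 2 and 8 were 14740, 16130 and 7401 CPM in Angus and 26050, 10310 and 8632 in Holstein. The groups that hold these samples, Angus at hours 0 and 2 and Holstein at hour 0, had the highest means. The part of the counting in this difference was not tested. Between breeds, 5 of these 10 were higher in Holstein and 1 lower at hour 0 (PCOLCE2, -1.06), where 13.8% of lines were called, and 6 and 1 at hour 8, where 16.5% were. Of 7 tested microfibril genes, 1 was called at hour 2 (LTBP2, 0.27, against 22.0% of lines) and 1 at hour 8 (MFAP2, -0.36, against 12.8%).

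Unannotated intervals next to several members were called in the direction of the gene. The interval downstream of ADAMTS3 rose by 1.31 (SE 0.23, FDR = 8.89e-07) at hour 8 and was past the threshold, and the interval upstream of ADAMTS6 by 1.12 (SE 0.31, FDR = 0.00591) at hour 8 and 1.96 (SE 0.27, FDR = 4.85e-11) between hour 2 and hour 8. The interval downstream of ADAMTS6 rose by 0.65 (SE 0.22, FDR = 0.0265) at hour 8, and the one downstream of ADAMTS1 fell between hour 2 and hour 8 (-0.67, SE 0.17, FDR = 7.32e-04). Gene and interval also differed. The interval downstream of ADAMTS3 was called at hour 2 (0.55, SE 0.16, FDR = 0.00353), where ADAMTS3 was not (FDR = 0.313). The interval upstream of ADAMTS3 was not called at hour 8 (0.21, SE 0.13, FDR = 0.307). The intervals named are a selection of those tested. These lines abut the genes and are counted apart from them.

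The genes whose levels were most like ADAMTS6 over the 24 samples, among 12949 expressed lines with a symbol, were STAMBP (Pearson r = 0.902), CTH (0.894) and LOC783065 (0.888). For ADAMTS5 they were PTGDR (0.866), PLSCR4 (0.834) and B4GALT6 (0.826). After group means were removed the values for ADAMTS6 were 0.571, 0.497 and 0.708, and for ADAMTS5 0.803, 0.843 and 0.768. These correlations are descriptions, in which genes of a sample share its library and the samples of an animal share its culture.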

How the data were processed

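RNA-Seq libraries were prepared from poly-A enriched RNA of 24 DF samples. The authors converted reads with CASAVA 1.7, aligned them with NextGENe 2.3.4 to UMD v3.1 and deposited a raw read count for every gene span and unannotated interval. Reads matched at 92.88% to 96.54%, and 59846 lines were listed. The deposited mean coverage signal of each span, which the authors' software made, was used only to find the 4 samples that stood apart in bases per count at COL1A1. How strand was treated is not given in the sources used here. The floor of 3 counts covers counting error only.

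From these deposited counts, TMM-scaled CPM and likelihood-ratio tests were computed in edgeR 4.0.16 (R 4.3.3) with Benjamini-Hochberg adjustment over all lines tested, as in the study's design. Breeds were compared at each hour and hours were compared with breeds combined, within breed and as an interaction. Lines with at least 1 CPM in 50% of the samples compared were kept. Alternatives were RLE scaling, no filter, the quasi-likelihood F test, DESeq2 1.42.0, a joint fit, the animal as a block, each animal left out and the 4 differently counted samples left out; the block with the F test was added after seeing the data. A 95% interval is the fitted change with 1.96 SE on each side. Changes per animal used a pseudocount of 1 CPM. The scripts were tested on simulated data.

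The members and gene lists were chosen with earlier results of these data known. By rule, at most 4 genes of each list, the largest changes past the threshold, were to be named; the further list genes in the report, above 4 in a list or below the threshold, were chosen after their values were seen. The numbers in the labels mark the same heifer at each hour: deviations from group means correlated within an animal at mean r = 0.658 (hours 0 and 2), 0.619 (0 and 8) and 0.611 (2 and 8), with a lowest r of 0.432. Between animals the means were -0.218, -0.205 and -0.202. Removing the group means forces these below 0 when the values within an animal are positive, so they add no separate evidence. ADAMTS7 was not analysed here, and no sequence is printed.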

Additional observations from a re-analysis of the deposited data

Results flagged for a closer look

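In 6 of the 54 groups of 4 samples (9 genes in 6 groups), 1 animal stood apart from the other 3 by Dixon's criterion (the gap to the nearest animal over the range of the group), which chance gives in about 1 group in 20. ADAMTS3 was at 6.39 CPM in Angus 1 at hour 0, where the others lay between 3.66 and 4.02, and at 3.87 CPM in Angus 2 at hour 2, where the others lay between 5.93 and 6.16. ADAMTS4 was at 28.9 CPM in Holstein 2 at hour 8, above 21.1 to 22.3 in the others. ADAMTS5 was at 27.9 CPM in Angus 3 at hour 8, above 9.13 to 11.8. ADAMTS9 was at 4.91 CPM in Holstein 3 at hour 2, below 6.33 to 6.47, and ADAMTS12 at 5.11 CPM in Angus 3 at hour 8, below 5.81 to 5.88.

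The response of ADAMTS9 at hour 2 differed between breeds in the fit with the animal as a block (0.46 on the log2 scale, Holstein minus Angus, FDR = 0.0151 in edgeR) and was not called without the block (FDR = 1.00).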

How the results depend on the processing

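Of 26 calls of a member by FDR, DESeq2 and RLE scaling kept 26 and added 4 and 1, the joint fit kept 23 and added 7, dropping the filter kept 23, and the F test kept 19 and added 1. Of 24 calls that could be refitted without the differently counted samples, 22 were kept. With the animal as a block all 23 calls that could be refitted were kept and 25 were added, 24 with the F test. The share of all lines that the block added is not given here. No call changed sign. Among the values per animal, 27 of 27 mean changes stayed within 1 SD with a pseudocount of 0.25 CPM, and 53 of 54 group levels without TMM scaling.

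The number of members past the threshold depended on the 2-fold limit. By FDR alone it was 1, 5 and 6 for hour 2, hour 8 and hour 8 against hour 2, 1 and 3 in Angus and 2 and 5 in Holstein at hours 2 and 8, and 1 and 2 between breeds at hours 2 and 8. At hour 8 with breeds combined it was 1 with the replicate block, 1 with the block and F test, and 1 without the differently counted samples. In Angus at hour 8 it was 1 with the block, 1 with the block and F test, and 1 in the joint fit, and in Holstein at hour 8 it was 1 without the differently counted samples. With each animal left out it ran from 0 to 1 at hour 2 and 0 to 2 at hour 8 with breeds combined, 0 to 1 in Angus and 1 to 3 in Holstein at hour 8, and 0 to 1 between breeds at hours 2 and 8.

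Values near 0 changed sign, none of them a call, and the cause was not tested. For ADAMTS2, without the differently counted samples, the values were -0.12 at hour 2 combined, -0.18 in Angus and -0.010 in Holstein at hour 2, and 0.037 between breeds at hour 2. For ADAMTS2 they were also -3.3e-04 in Angus at hour 2 without the filter, -0.014 in Holstein at hour 2 in the joint fit, and -0.0022 with RLE, -0.0033 without the filter and -0.0022 with DESeq2 in the interaction at hour 2. For ADAMTS4 between breeds at hour 0 the value without the differently counted samples was 0.051. With each animal left out, the log2 values spanned 0 for ADAMTS2 (-0.020 to 0.034) at hour 2 with breeds combined, for ADAMTS2 (-0.044 to 0.069), ADAMTS12 (-0.023 to 0.053) in Angus at hour 2, for ADAMTS5 (-0.23 to 0.56), ADAMTS9 (-0.076 to 0.20) in Angus at hour 8, for ADAMTS2 (-0.021 to 0.042), ADAMTS9 (-0.12 to 0.0071) in Holstein at hour 2, for ADAMTS2 (-0.14 to 0.10), ADAMTS3 (-0.052 to 0.33) between breeds at hour 0, for ADAMTS2 (-0.16 to 0.037), ADAMTS3 (-0.12 to 0.086) between breeds at hour 2, for ADAMTS2 (-0.089 to 0.24) between breeds at hour 8, for ADAMTS1 (-0.14 to 0.25), ADAMTS2 (-0.067 to 0.054), ADAMTS3 (-0.25 to 0.017), ADAMTS5 (-0.10 to 0.24), ADAMTS10 (-0.063 to 0.089) in the interaction at hour 2 and for ADAMTS1 (-0.067 to 0.26), ADAMTS6 (-0.10 to 0.074) in the interaction at hour 8.

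Depth put 155 to 19621 counts behind each member in a sample. Leaving out an animal left 3 in its group.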
